A study of Homo sapiens with 4 samples.

Results

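The genes described are 10 markers and regulators of the epithelial-mesenchymal transition, namely the epithelial genes CDH1 and EPCAM, the mesenchymal genes CDH2, VIM and FN1, and the transcription factors SNAI1, SNAI2, TWIST1, ZEB1 and ZEB2. They were picked by symbol as standard genes of this program, with earlier results of these data known. Of the 10, 8 had counts among the 15220 genes of the table and 2, SNAI2 and TWIST1, are listed by symbol without a row of counts, so that nothing is reported on them. The samples were 2 RNA-seq libraries of PANC-1, a human line of pancreatic ductal adenocarcinoma, and 2 of PZT-2, a knockdown line made from it. PZT-2 is 1 clone that carries lentiviral shRNAs against the 3 isoforms of the histone variant H2A.Z, one shRNA aimed at the untranslated end of H2A.Z.1 and another at an exon common to both H2A.Z.2 isoforms. PANC-1 here is the parental, untransduced line, so that the knockdown, the transduction and the choice of 1 clone cannot be told apart, and libraries of a scrambled shRNA line are not analysed here. Both lines were at passages 12 to 13 in the same medium with serum.

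The epithelial-mesenchymal transition is the program by which epithelial cells give up their junctions and polarity and take on the shape and motility of mesenchymal cells. E-cadherin, the product of CDH1, holds neighbouring epithelial cells together, and SNAI1, SNAI2, ZEB1 and ZEB2 are zinc finger repressors that bind E-box motifs in the CDH1 promoter, while TWIST1 is a helix-loop-helix factor that acts in the same program. N-cadherin (CDH2), the intermediate filament protein vimentin (VIM) and the matrix protein fibronectin (FN1) are the usual signs of its mesenchymal side, and pancreatic carcinoma lines are known to range widely between both ends.

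The libraries held between 12861442 and 15717552 counts once a scaling factor in the deposited values had been undone. Normalized counts are scaled to the mean library, TPM (a level per transcript length that sums to the same total in each library) was computed from the same counts, errors are SD over 2 libraries, and every log2 fold change is PZT-2 against PANC-1. The tests are quasi-likelihood tests of edgeR, with p values adjusted over all genes by the method of Benjamini and Hochberg. As a check of the labels, H2AFZ, the gene of H2A.Z.1, had normalized counts of 6389 and 6034 in PANC-1 and 2213 and 2259 in PZT-2, a difference of -1.47 on the log2 scale (adjusted p = 6.19e-05). H2AFV, the gene of both H2A.Z.2 isoforms, had 3344 and 3452 in PANC-1 against 2590 and 2717 in PZT-2, or -0.36 on that scale (adjusted p = 0.00564). Among all 15100 genes tested, 28.4% passed an adjusted p of 0.05, with 14.7% higher and 13.7% lower in the clone. Libraries of the lines were apart, with no overlap, in 66.2% of genes. With 2 libraries against 2, an exact permutation test of a single gene cannot go below p = 0.333, so none was made. The study describes the libraries of a line as biological replicates, and as all PZT-2 libraries come from the same clone the p values measure the spread between libraries and not between clones.

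Of the 8 members with counts, picked with earlier results known, 4 passed the test, beside 28.4% of all genes tested. CDH1, CDH2 and VIM were lower and SNAI1 higher in PZT-2, and EPCAM, ZEB1, ZEB2 and FN1 did not pass. The epithelial cadherin and the mesenchymal cadherin thus both fell in the same clone, while the repressor SNAI1 rose. In PANC-1 the order of the mean TPM levels was VIM, CDH2, SNAI1, EPCAM, CDH1, ZEB1, FN1 and ZEB2, and in PZT-2 it was VIM, SNAI1, CDH2, EPCAM, ZEB1, CDH1, FN1 and ZEB2. In PZT-2 the mean TPM levels of CDH2 (7.98 ± 1.17, SD, n = 2) and EPCAM (7.57 ± 1.17, SD, n = 2) lay within their spread of each other, as did those of FN1 and ZEB2, and in PANC-1 the mean of ZEB1 (1.56 ± 1.94, SD, n = 2) lay within 1 SD of those of FN1 and ZEB2.

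**Figure D1:**
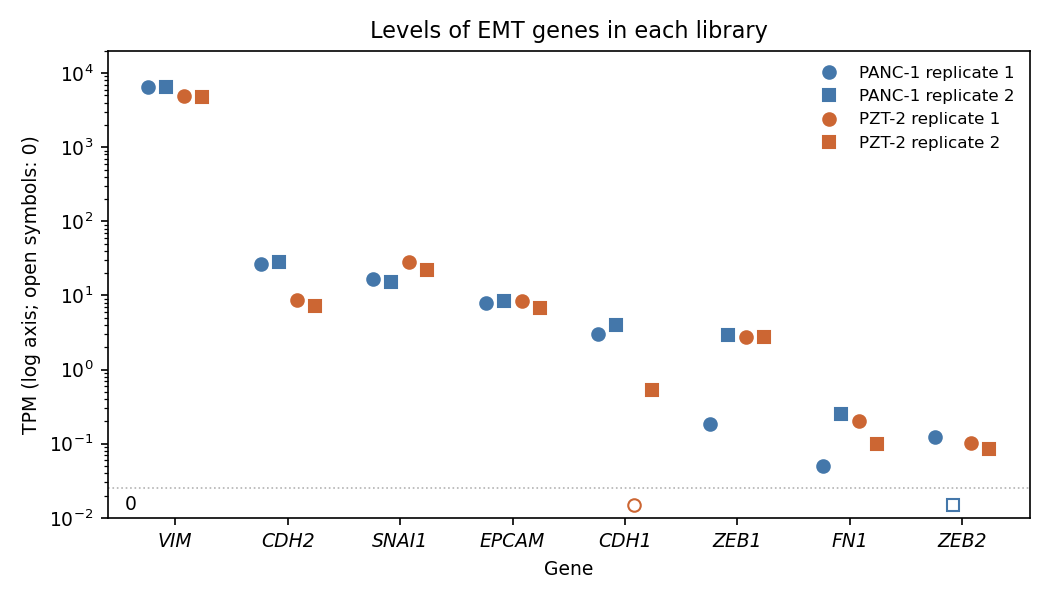
Level in TPM on a log axis of the 8 EMT genes with counts, 1 symbol per library (blue PANC-1, orange PZT-2; circles replicate 1, squares replicate 2; open symbols are libraries at 0). VIM stands at 6396 and 6497 TPM in PANC-1 and at 4875 and 4742 TPM in PZT-2, CDH2 and CDH1 are lower and SNAI1 is higher in both PZT-2 libraries, and 1 PANC-1 library of ZEB1 lies far below the other 3.

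CDH1, the gene of E-cadherin, was low in PANC-1 and close to absent from the PZT-2 libraries. Its counts were 103 and 164 in PANC-1 replicates 1 and 2 and 0 and 19 in PZT-2 replicates 1 and 2. Both PANC-1 libraries lay above both PZT-2 libraries, and the PZT-2 libraries differed from each other. The normalized count went from 132 ± 22.9 (SD, n = 2) to 9.39 ± 13.3 (SD, n = 2). The log2 fold change was -3.79 (standard error 0.716, 95% interval -5.51 to -2.07, adjusted p = 0.0102). Pooled over the libraries, 267 counts stood against 19, a ratio of 14.1 (95% exact interval 8.86 to 23.8, which covers counting error only). Taken alone against PANC-1, PZT-2 replicate 1 with its 0 counts was at least 43.7-fold lower, with 3 counts in that library as the floor. DESeq2 did not call CDH1 (adjusted p = 0.262), while the other 12 alternatives that gave a value did. The highest adjusted p among those 12 was 0.0335, with limma-trend on log2(TPM + 0.1). The sum rests on 1 of the 4 transcripts listed for the gene, and any reads that kallisto gave to the other 3 are not in it. In bulk RNA, fewer cells that express a gene and less of its mRNA per cell cannot be told apart, here and for the other members. On the TPM scale CDH1 was at 3.03 and 4.0 in PANC-1 and at 0 and 0.527 in PZT-2.

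EPCAM, which encodes a homophilic adhesion protein of epithelia and carcinomas, showed no change that passed the test. Its normalized counts were 102 and 105 in PANC-1 and 102 and 82.1 in PZT-2. Both PZT-2 libraries were below both PANC-1 libraries, the first of them by less than 1 normalized count. The log2 fold change was -0.17 (standard error 0.172, 95% interval -0.59 to 0.24, adjusted p = 0.50), an interval that leaves room for a decrease or a small increase and ends well short of the change of CDH1. None of the 14 alternatives called it.

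CDH2, the gene of N-cadherin, was the most abundant member after VIM in PANC-1 and fell together with CDH1. Normalized counts were 890 and 906 in PANC-1 and 278 and 223 in PZT-2. Both PZT-2 libraries were far below both PANC-1 libraries. The mean went from 898 ± 10.9 (SD, n = 2) to 250.2 ± 39.1 (SD, n = 2), which is 3.59-fold lower, with a log2 fold change of -1.84 (standard error 0.111, 95% interval -2.11 to -1.58, adjusted p = 2.51e-04). All 14 alternatives called it, and leaving out any 1 of the 4 libraries kept the log2 fold change between -2.01 and -1.69. Among the 2063 genes called lower it ranked at 170 by size. Both transcripts of CDH2 were lower, NM_001792 by a log2 fold change of -1.87 and NM_001308176 by -1.76, but neither passed among all 30403 transcripts tested in edgeR (adjusted p = 0.104 and 0.468), where 0.148% of transcripts did. None of the 11 member transcripts tested passed that test, and 3 had an unadjusted p below 0.05, those of VIM and SNAI1 and NM_001792. With DESeq2, 2 passed, NM_001792 and that of VIM. NM_001308176 took 58.5 normalized counts in 1 PANC-1 library and 309 in the other, so that the division of reads between both transcripts varied more than their sum.

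Ratios of TPM within a library take out any scaling common to it. The TPM of CDH2 was 8.72 and 7.16 times that of CDH1 in PANC-1 and 13.6 times in PZT-2 replicate 2, with no ratio in replicate 1, where CDH1 was at 0. CDH2 stood at 3.31 and 3.39 times the TPM of EPCAM in PANC-1 and at 1.05 and 1.06 times in PZT-2. For the pair of CDH2 and EPCAM the libraries of each line were close together and far from those of the other line.

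VIM, whose product forms the intermediate filaments of mesenchymal cells, was among the most abundant mRNAs in both lines. Normalized counts were 106100 and 104500 in PANC-1 and 76400 and 74710 in PZT-2. The libraries of each line were close together and the lines did not overlap. VIM was 1.39-fold lower in PZT-2, with a log2 value of -0.48 (standard error 0.0324, 95% interval -0.56 to -0.40, adjusted p = 3.69e-04), and all 14 alternatives called it. By TPM it ranked at place 5 among all genes in both PANC-1 libraries (6396 and 6497 TPM) and at place 13 in both PZT-2 libraries (4875 and 4742 TPM). Its change was smaller than those of the keratin genes KRT8 and KRT18. VIM stood at 2.05 and 2.06 times the TPM of KRT8 in PANC-1 and at 3.31 and 3.33 times in PZT-2. For KRT18 the ratios were 3.13 and 3.19 against 4.02 and 3.90. KRT7, a further keratin, had a smaller log2 fold change than VIM, -0.27, and did not pass (adjusted p = 0.286). KRT8 and KRT18 encode the keratin pair of simple epithelia. VIM as a level fell in PZT-2, and VIM relative to KRT8 and KRT18 was higher there.

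FN1, which encodes fibronectin, was near the limit of detection in both lines. The counts were 3 and 17 in PANC-1 and 12 and 6 in PZT-2. The libraries of both lines overlapped, and the log2 fold change of -0.11 (95% interval -1.90 to 1.69, adjusted p = 0.936) gives no direction at this depth. The sum rests on 1 of 10 listed transcripts.

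SNAI1, the gene of the zinc finger repressor Snail, was the only one of the 8 members that rose past the test. Normalized counts were 212 and 190 in PANC-1 and 341 and 268 in PZT-2. Both PZT-2 libraries were higher, and they differed from each other by more than the PANC-1 libraries did. The mean of 201 ± 15.4 (SD, n = 2) in PANC-1 stood against 305 ± 51.8 (SD, n = 2) in the clone, a 1.52-fold increase with a log2 fold change of 0.60 (standard error 0.147, 95% interval 0.25 to 0.96, adjusted p = 0.0249). Of 14 alternatives 13 called it, and without PZT-2 replicate 1 it was at 0.42 and no longer passed (adjusted p = 0.130, the highest of a range that began at 0.0119). By TPM, SNAI1 stood at 2.08 and 1.82 times EPCAM in PANC-1 and at 3.38 and 3.28 times in PZT-2. Among the 2222 genes called higher it ranked at 967 by size.

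ZEB1, the gene of a repressor that acts beside SNAI1 on epithelial promoters, showed no difference that the libraries could settle. The counts were 8 and 150 in PANC-1 and 122 and 127 in PZT-2. PANC-1 replicate 1 lay far below the other 3 libraries, which were alike. The log2 fold change of 0.72 (95% interval -1.14 to 2.58, adjusted p = 0.538) became -0.13 (adjusted p = 0.638) without PANC-1 replicate 1 and 3.76 (adjusted p = 2.56e-05) without PANC-1 replicate 2. The sum rests on 3 of 41 transcripts listed for ZEB1, and those 3 traded places between libraries: NM_030751 had 77.2 normalized counts in PANC-1 replicate 2, 106 and 40.4 in PZT-2, and 0 in PANC-1 replicate 1, while NM_001174096 had 59.0 in PANC-1 replicate 2, 79.8 in PZT-2 replicate 2 and 0 in the other libraries. Whether reads of PANC-1 replicate 1 went to transcripts of ZEB1 outside the count table was not tested.

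ZEB2, a close relative of ZEB1, was hardly detected. Its counts were 8 and 0 in PANC-1 and 7 and 6 in PZT-2, on 1 of 3 listed transcripts. The lines overlapped, with a log2 fold change of 0.62 (95% interval -2.08 to 3.32, adjusted p = 0.728). Without PANC-1 replicate 1 that value was 5.78 (adjusted p = 0.0243), where the remaining PANC-1 library is at 0 and the value depends on the prior count of the fit, and without PANC-1 replicate 2 it was -0.47.

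**Figure D2:**
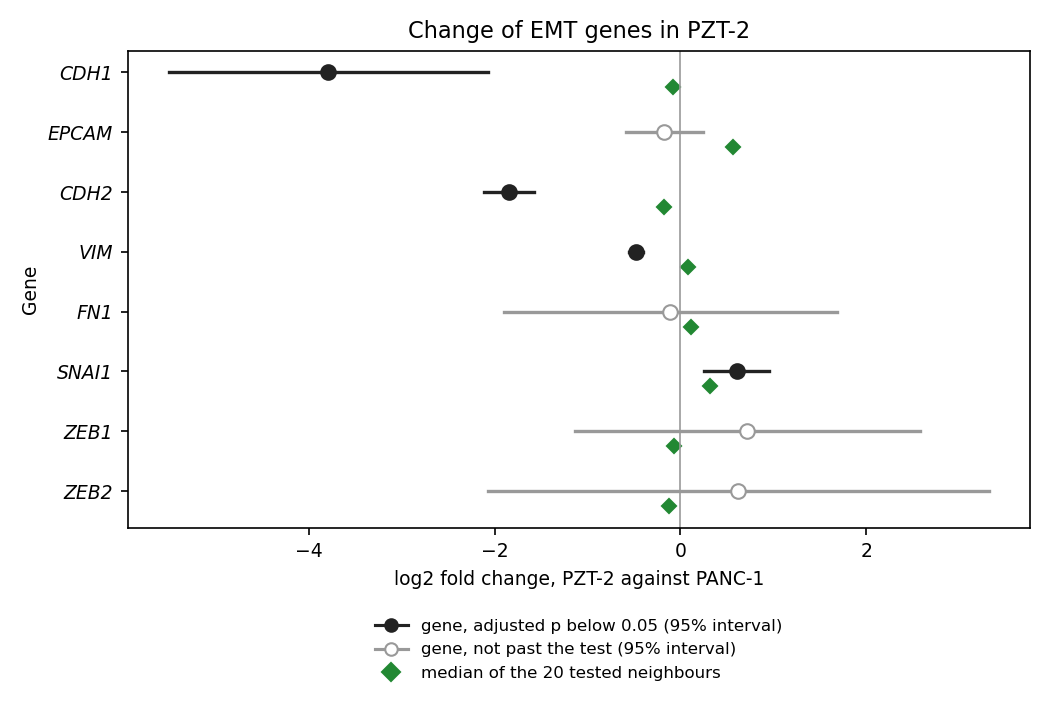
log2 fold change of PZT-2 against PANC-1 with its 95% interval for each EMT gene with counts (black, adjusted p below 0.05; grey open, not past the test) and, as green diamonds, the median over 20 tested neighbours of the gene on its chromosome. CDH1, CDH2 and VIM lie below 0, SNAI1 above it, and EPCAM lies left of its neighbours, whose median is 0.57.

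To see whether the members moved with their surroundings, they were set beside the 10 tested genes on either side of each on its chromosome. Around CDH1 (chromosome 16), CDH2 (chromosome 18) and VIM (chromosome 10) the neighbours had median log2 fold changes of -0.08, -0.17 and 0.09, so that each of these 3 genes fell by more than the median around it. Around SNAI1 (chromosome 20) the median was 0.31, with 5 of 20 neighbours higher and 3 lower, beside 0.60 for SNAI1 itself. Over all genes tested, 14.7% were called higher and 13.7% lower in PZT-2. EPCAM (chromosome 2) lay among genes of which 13 of 20 rose and 0 fell, with a median of 0.57, while EPCAM stood at -0.17. The medians around ZEB1, ZEB2 and FN1 were -0.07, -0.13 and 0.11.

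Further genes of the program were followed in 8 lists of 160 genes in all, of which 123 were tested. Of these, 27 were higher and 32 lower in PZT-2, 48.0% beside the 28.4% of all genes tested, with a median log2 fold change of -0.07 beside 0.001 over all genes. The lists were chosen for their biology and with earlier results of these data known, so that the share only describes them. No test of the lists was made.

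Cell junction and polarity genes moved in both directions, more of them downward. Of 21 tested genes of epithelial junctions and polarity, 8 fell and 4 rose, with a median of -0.15. The share called was 57.1%, beside 28.4% of all genes tested. Without PZT-2 replicate 1 or 2, 7 or 5 of these genes were called in place of 12. DSP, the gene of desmoplakin, which anchors keratin filaments to desmosomes, went from normalized counts of 234 and 285 in PANC-1 to 92.6 and 68.2 in PZT-2 (-1.69 on the log2 scale, adjusted p = 0.00156). LLGL2, which encodes a basolateral polarity protein, fell from 1124 and 1050 to 399 and 363 (log2 fold change -1.51, adjusted p = 2.05e-04). The polarity complex split: PARD6B fell by 0.93 and PARD3 rose by 0.62 on the log2 scale (adjusted p = 0.00471 and 0.00173).

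Among the other cadherins and the catenins that link cadherins to actin, 2 of 10 tested genes fell and 1 rose. This share of 30.0% was close to the 28.4% of all genes tested. CDH3, the gene of P-cadherin and a neighbour of CDH1, went from 88.9 and 84.9 to 31.2 and 41.5 normalized counts (log2 fold change -1.25, adjusted p = 0.00882), and JUP, which encodes the catenin plakoglobin, fell by 0.55 on the log2 scale (adjusted p = 0.00531). CTNNB1, which encodes beta-catenin, the partner of cadherins that also serves Wnt signalling, rose in both libraries, from 2015 and 2264 to 4960 and 5432 (log2 fold change 1.28, adjusted p = 2.59e-04). Its 20 neighbours on chromosome 3 had a median of 0.63 with 7 called higher and 0 lower, beside 14.7% and 13.7% of all genes tested. Hence the 3 cadherins that passed the test, CDH1, CDH2 and CDH3, were lower. The other tested cadherins of the list did not pass, with log2 fold changes of -1.20 (CDH6), -0.29 (CDH4), -0.23 (CDH24), 0.49 (CDH17) and 0.94 (CDH15). Alpha-catenin (CTNNA1) and p120-catenin (CTNND1) had log2 fold changes of 0.08 and -0.09 and did not pass either (adjusted p = 0.342 and 0.277).

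**Figure D3:**
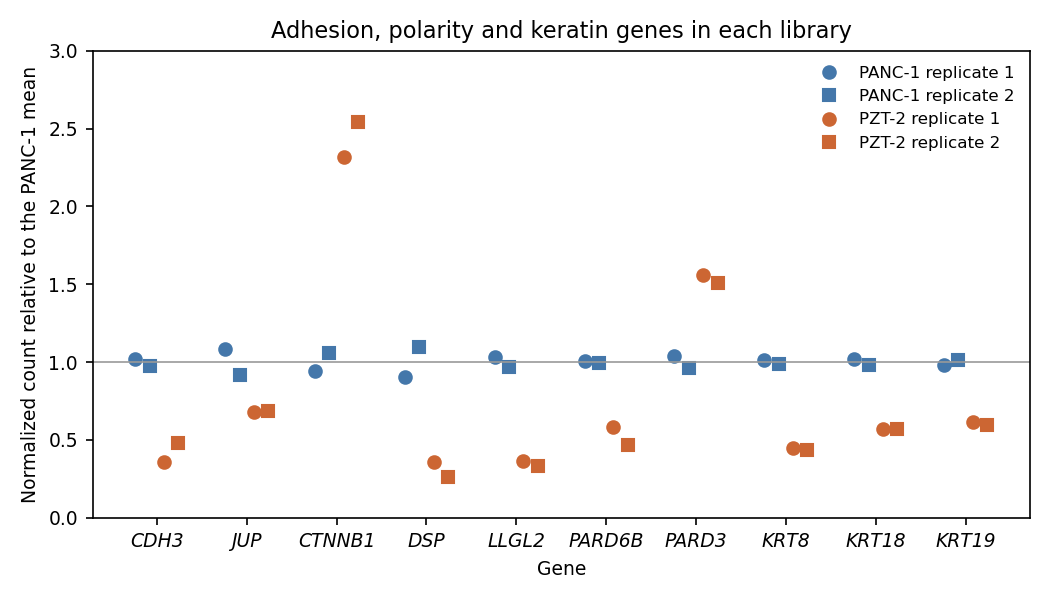
Normalized count of 10 adhesion, polarity and keratin genes in each library, divided by the mean of the 2 PANC-1 libraries (blue PANC-1, orange PZT-2; circles replicate 1, squares replicate 2). CTNNB1 and PARD3 are higher in both PZT-2 libraries and the other 8 genes are lower in both.

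Of 10 tested regulators of epithelial identity, 4 fell and 1 rose, with a median of -0.34. These 5 calls among 10 genes stood beside 28.4% of all genes tested. GRHL3, a grainyhead factor of surface epithelia, fell by 1.23, ESRP2, an epithelial splicing regulator, by 0.49, SPINT2, an inhibitor of membrane serine proteases, by 0.35, and FOXA2, a factor of the endodermal lineage, by 0.33 on the log2 scale (adjusted p = 0.0109, 0.00956, 0.00239 and 0.0144). ST14, the gene of the membrane protease matriptase, rose from a low level, 5.75 to 28.5 normalized counts on average (log2 fold change 2.24, adjusted p = 0.0167). ESRP2, FOXA2 and ST14 did not pass without PZT-2 replicate 1 or without PZT-2 replicate 2 (adjusted p between 0.0541 and 0.0802), and 2 of these regulators in place of 5 were called in either case.

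Mesenchymal genes other than the members also moved in both directions, with 10 of 27 lower, 6 higher and a median of -0.12. Calls made up 59.3% of these genes, beside 28.4% of all genes tested. Of the genes with a mean of at least 100 normalized counts, matrix genes had the largest decreases. TNC, which encodes tenascin C, changed by -3.29 on the log2 scale (240.0 ± 12.9 to 24.5 ± 2.42 normalized counts, SD, n = 2, adjusted p = 1.81e-04). SPOCK1, which encodes a matrix proteoglycan, was at -2.39 (739 ± 46.9 to 141 ± 1.75, SD, n = 2, adjusted p = 8.03e-05). SPARC, whose product binds collagen, was at -1.70 (233 ± 1.61 to 71.8 ± 11.8, SD, n = 2, adjusted p = 8.36e-04). THY1, a surface protein of fibroblasts and stem cells, rose by 1.43 (83.9 ± 8.69 to 226 ± 18.3, SD, n = 2, adjusted p = 0.00121).

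The other transcription factors of the program had more genes higher than lower, 4 against 1 of 11 tested, with a median of 0.17. Calls made up 45.5% of these factors, beside 28.4% of all genes tested. FOXC2, FOXC1 and ETS1, factors of mesoderm and of mesenchymal cells, rose by 0.58, 0.48 and 0.40 and SOX9, a progenitor and duct factor, by 0.25 on the log2 scale (adjusted p = 0.00794, 0.0320, 0.00501 and 0.0371). TCF12, which encodes an E-protein that pairs with TWIST1, fell by 0.31 (adjusted p = 0.0188). Of these 5 genes only FOXC2 and ETS1 passed in all alternatives that were run. Without PZT-2 replicate 1 the adjusted p was 0.162 for FOXC1, 0.188 for SOX9 and 0.0840 for TCF12, and without PZT-2 replicate 2 it was 0.112, 0.128 and 0.109. FOXC1 also missed the threshold without PANC-1 replicate 1 or 2 (0.0549 and 0.0705) and SOX9 without PANC-1 replicate 2 (0.0586). With DESeq2 FOXC1 was at 0.210 and with the replicate block at 0.0557, and the limma-trend fits of TPM, with 1 or 0.1 added before the log2, gave 0.0851 and 0.0828 for TCF12. In all, 3 of these factors were called without PANC-1 replicate 2 and 2 without either PZT-2 library. TWIST2, the relative of TWIST1, was measured at 86.2 and 86.8 normalized counts on average in PANC-1 and PZT-2 (log2 fold change 0.01, adjusted p = 0.986).

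Genes of the proteins that assist SNAI1 or take it down had a median of -0.001. Of 18 tested, 4 were higher and 3 lower (38.9% beside 28.4% of all genes tested). Of these 7 calls the count went to 3 or 2 without PZT-2 replicate 1 or 2, to 3 with the replicate block and to 4 with DESeq2. FBXO45 and FBXO11, both of which encode F-box proteins that mark EMT factors for degradation, rose by 0.94 and 0.42 (adjusted p = 8.26e-04 and 0.0107). Each lay among risen neighbours, with medians of 0.62 around FBXO45 on chromosome 3 and 0.42 around FBXO11 on chromosome 2. NUAK1, a kinase of the AMPK family, fell by 0.44 and EZH2, the methyltransferase of Polycomb, by 0.34 on the log2 scale (adjusted p = 0.00555 and 0.0314). EZH2 did not pass without PANC-1 replicate 2 or without the first or the second library of PZT-2 (adjusted p = 0.0901, 0.0999 and 0.147), nor with DESeq2 (0.0964), the same limma-trend fits (0.0985 and 0.0991) or the replicate block (0.0525), nor did FBXO11 without PZT-2 replicate 2 (adjusted p = 0.0763).

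Of 12 tested ligands that induce the transition, 3 rose and 2 fell (41.7% beside 28.4% of all genes tested). TGFB2 fell from 502 ± 62.5 to 173 ± 21.8 normalized counts (SD, n = 2), by -1.54 on the log2 scale (adjusted p = 8.26e-04), while TGFB1 rose by 0.22 (adjusted p = 0.0421), so the TGF-beta ligands did not move together. TGFB3 was at -0.66 and did not pass (adjusted p = 0.0552). GAS6, the ligand of the receptor AXL, fell by 1.17, INHBA, which encodes the activin A subunit, rose by 1.21 and JAG1, a Notch ligand, rose by 0.67 (adjusted p = 5.16e-04, 0.0105 and 0.00285). Without PZT-2 replicate 1, INHBA did not pass (adjusted p = 0.0655), and TGFB1 did not with any of the 4 libraries left out (adjusted p = 0.0566 to 0.206), with DESeq2 (0.154) or with the replicate block (0.0789). The list had 3 calls in place of 5 without PZT-2 replicate 1.

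Partners of vimentin and fibronectin had 4 of 14 genes higher and 2 lower (42.9% beside 28.4% of all genes tested), with a median of 0.05. Receptors of fibronectin moved in both directions. ITGA5, the alpha chain of the main fibronectin receptor, went from 3815 ± 257 to 6801 ± 179 (SD, n = 2) in normalized counts, 0.83 on the log2 scale (adjusted p = 5.04e-04). SDC4, a heparan sulfate co-receptor of fibronectin, rose by 0.58, LTBP1, which tethers latent TGF-beta to the matrix, by 1.00 and FBLN1, a matrix protein that binds fibronectin, by 0.34 (adjusted p = 0.00106, 3.54e-04 and 0.0112). FBLN1 did not pass without PZT-2 replicate 1 or 2 (adjusted p = 0.0812 and 0.0600). YWHAZ, which encodes a 14-3-3 protein, and ITGAV, the alpha chain of other fibronectin receptors, fell by 0.23 and 0.34 (adjusted p = 0.00893 and 0.0155), while the beta chains ITGB1 and ITGB3 had log2 fold changes of 0.07 and -0.37 that did not pass (adjusted p = 0.386 and 0.117). These 4 genes were named after their values were seen. Of 14 alternatives, 12 called YWHAZ and 10 called ITGAV. With single libraries left out, the log2 fold change of ITGAV ran from -0.41 to -0.27. Without either PZT-2 library 3 genes of the list were called in place of 6. LTBP1, too, lay among risen neighbours, with 14 of 20 called higher, beside 14.7% of all genes tested, and a median of 0.48.

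Lists of cell type markers were read beside these results. Of 9 pancreatic ductal markers 6 were tested, and CFTR and SPP1 had no counts in the table. KRT8, KRT19 and KRT18 were at 41450, 22700 and 21700 normalized counts in PANC-1 and fell by 1.17, 0.73 and 0.81 on the log2 scale (adjusted p = 5.97e-05, 2.41e-04 and 1.99e-04). MUC1, an apical mucin, fell by 0.51 and ANXA4, an annexin, rose by 0.21 (adjusted p = 0.0234 and 0.0435). KRT7, the remaining marker tested, was at -0.27 and did not pass (adjusted p = 0.286). MUC1 did not pass without PZT-2 replicate 2 (adjusted p = 0.120), and ANXA4 did not without PANC-1 replicate 1 or either PZT-2 library (adjusted p = 0.0540 to 0.257), with DESeq2 (0.0939) or with the replicate block (0.0676). The summed level of the list went from 88600 and 87480 to 47170 and 46390. Of 9 fibroblast markers, PDGFRB, COL6A3 and THY1 had counts, with a summed level of 128 and 124 in PANC-1 and 270 and 240 in PZT-2 that was mostly THY1 (adjusted p = 0.00121), while DCN, LUM and PDGFRA had none. Of 7 endothelial markers only PECAM1 had counts, at 4.03 to 12.4 in the 4 libraries. Of 8 leukocyte markers CD68 and CD14 had counts and PTPRC had none, and the summed level was 1578 to 1724 in the 4 libraries, nearly all of it CD68. CD14 rose from 3 counts over both PANC-1 libraries to 48 over both PZT-2 libraries (adjusted p = 0.0234), a ratio of 15.9 (95% exact interval 5.13 to 79.9, counting error only). CD14 met the filter of 5 counts in 2 libraries only through PZT-2, where it is high, with counts of 16 and 32. Left out 1 at a time, the PANC-1 libraries gave log2 fold changes of CD14 of 2.77 without replicate 2 and 7.64 without replicate 1, where the remaining library is at 0 and the value depends on the prior count of the fit. The part of other cell types in the results was not tested further.

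The sequence that SNAI1 and the ZEB factors bind was looked up in RefSeq promoters of GRCh38.p14, from 250 bases before to 50 after each start. The motif was CACCTG or its reverse complement CAGGTG, which is 1 E-box read on both strands. It was in 7231 of 35116 promoters (20.6%). Of the members, CDH2, VIM, ZEB1, ZEB2 and FN1 matched promoters in this table, and CDH1, SNAI1, SNAI2, TWIST1 and EPCAM have no entry. The motif was in 2 of the 12 promoters of the matched members, both of them among the 7 of ZEB1, and in none of those of CDH2, VIM, ZEB2 and FN1. It was in 11 of 21 promoters (52.4%) of the epithelial junction genes, in 3 of 9 (33.3%) of the epithelial regulators and in 5 of 29 (17.2%) of the mesenchymal genes. Sites are shown for ZEB1, the 1 member of the 5 in the table with a match, for 3 epithelial genes that fell and for ANXA4, which rose, each 5′ to 3′ in the direction of the gene with every copy of the motif in capitals. Of 4 ZEB1 matches, all on the plus strand, those 57 and 85 bases before the start of different promoters are shown, and the promoter of the latter held another 242 bases before and 33 after its start. The DSP matches lie 178 and 85 bases before the start (plus strand). GRHL3 has the one shown 21 bases before the start and another 9 bases after it (plus strand). JUP has matches 54 and 43 bases before it, both in the stretch shown (minus strand), and ANXA4 has 1 at 135 bases (plus strand). MUC1, which fell, also holds the motif and is not shown. No site was found for LLGL2, PARD6B, CDH3, ESRP2, SPINT2, FOXA2, KRT8, KRT18 and KRT19, which also fell. The same holds for PARD3, CTNNB1 and ST14, which rose. For these genes, lack of the motif and lack of a promoter entry were not told apart.
ZEB1, chr10:31318348-31318377: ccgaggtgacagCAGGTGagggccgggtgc
ZEB1, chr10:31319119-31319148: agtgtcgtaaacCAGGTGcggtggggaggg
DSP, chr6:7541481-7541510: gggcggcgggcgCAGGTGgggaggggcggc
DSP, chr6:7541574-7541603: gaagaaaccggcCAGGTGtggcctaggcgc
GRHL3, chr1:24319324-24319353: agttaacagctgCACCTGttgaggtatacc
JUP, chr17:41786013-41786042: cgactctggcccCACCTGccgagCAGGTGa
ANXA4, chr2:69741987-69742016: ggcccggggcccCAGGTGcgcttcccctag
These matches describe letters in a window of the reference, and binding was not measured in these libraries.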

How the data were processed

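RNA-seq was available for 2 libraries each of PANC-1 and PZT-2, grouped by the cell line in the labels. Per the labels and methods, the authors made stranded mRNA libraries (paired reads of 76 bases), trimmed reads with Trim Galore 0.4.1, estimated RefSeq transcripts with kallisto 0.43.0 and compared the lines with sleuth 0.29.0, and their notes name hg19. The deposited values used are estimated counts and effective lengths per transcript and library; the authors' table of their own comparison (p, q and effect of sleuth's Wald test) served only to give transcripts their gene symbols. The estimated counts carry 1 factor per library (1.16, 0.935, 1.03 and 1.01), which was undone. After that 49.0% to 50.0% of values between 0.5 and 30 were whole within 0.01, against 0.635% to 2.71% as deposited.

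Counts were summed per gene, rounded and tested where at least 2 libraries had 5 counts (edgeR 4.0.16, TMM, quasi-likelihood test, R 4.3.3). Transcripts with no symbol took one through their accession, and 103 with 0.0466% of the counts stayed unnamed. TPM was computed from the recovered counts and effective lengths. The test was also run on simulated counts in which few genes changed, and that run gives no error rate for these libraries. Same-numbered libraries did not deviate together (correlation -0.02), and the main test has no block.

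The members and lists were chosen with earlier results of these data known. Named are the 10 members and, per list, up to 4 called genes of largest change averaging 100 normalized counts or more and libraries that do not overlap, or all called genes of a list with at most 5. Outside this rule, TWIST2, TGFB3, CTNNA1, CTNND1, CD68, the cadherins with no call and marker genes with no call were named with their values in view. So were YWHAZ, ITGAV, ITGB1 and ITGB3. Alternatives were RLE factors, DESeq2 1.42.0, other filters, limma-trend (3.58.1) on log2(TPM + 1) and log2(TPM + 0.1), a replicate block, the version 4 estimate of edgeR, length-scaled counts, the deposited scaling and each library left out.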

Additional observations from a re-analysis of the deposited data

How the results depend on the processing

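CDH1, CDH2 and VIM stayed lower and SNAI1 higher in every alternative run for them. Apart from the losses of call given beside CDH1 and SNAI1, CDH2 lost its call with its most abundant transcript alone (-1.87, adjusted p = 0.104). With each library left out, 3 to 5 members were called, CDH1 ran from -10.05 (where its 1 PZT-2 library is at 0, a value that depends on the prior count) to -2.81, SNAI1 from 0.42 to 0.77, ZEB1 from -0.13 to 3.76, ZEB2 from -0.47 to 5.78 and FN1 from -0.77 to 1.37. FN1 also changed sign with limma-trend on log2(TPM + 1) (0.00415) and log2(TPM + 0.1) (0.0949) and with the replicate block (0.0350). The replicate block called 3737 of all genes in place of 4285 and the same number of members, 4; the libraries share only a number, so it is no pairing. Without PZT-2 replicate 1 or 2, 2459 or 2021 genes were called (2021 to 4617 over the 4 libraries left out), and 37 or 34 of the list genes in place of 59 (34 to 64). No member transcript was called at an adjusted p of 0.05 by edgeR, against 2 with DESeq2, 2 with at least 10 counts in all 4 libraries and 1 with the version 4 estimate. Limma-trend put 62.1% and 62.2% of called genes higher, against 51.9%. At least 10 counts in all 4 libraries left no value for CDH1, ZEB1, ZEB2 and FN1. Of 40 list genes named by the rule above, 27 kept their call in all alternatives, 13 lost it in at least 1 and 0 reversed. YWHAZ and ITGAV, called genes named outside that rule, also lost their calls in at least 1. Counts under about 20 per library limit what can be said of FN1, ZEB2 and CDH1 in PZT-2.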
